A study of Xenopus laevis with 11 samples.

Results

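The phosphoprotein phosphatase genes of *Xenopus laevis* were taken as all protein-coding genes whose symbol starts with ppp followed by a class digit from 1 to 6, in a RefSeq gene table of the v10.1 assembly. The rule used names alone and gave 111 gene copies of 34461 protein-coding genes, on 18 of 18 chromosomes. Of these, 18 encoded catalytic subunits and 93 encoded regulatory subunits. The frog is an allotetraploid with an L and an S subgenome, and 60 of the copies lay on L chromosomes and 51 on S chromosomes. In 42 cases an L and an S copy of the same name formed a homeolog pair, and 27 copies had no such partner.

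Accessible chromatin was measured by ATAC-seq, which marks DNA open to the Tn5 transposase, in animal caps of wild-type embryos (strain Xla.NXR-WTNXR). The animal cap is the explanted upper part of the blastula, whose cells are still pluripotent and can form ectoderm. The labels list 5 libraries from 3 replicates at stage 8 and 6 libraries from 4 replicates at stage 9. Some replicates have a library with and another without size selection, and the rest have only a size-selected library. The analysis rests on the authors' single list of 58223 peaks, called on all stage 9 libraries pooled. Stage 8 and the separate libraries were not analysed here, and no value therefore has a replicate error.

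Phosphoprotein phosphatases remove phosphate from serine and threonine and oppose the many kinases of the cell with few catalytic subunits. PP1 and PP2A gain their targets from the subunits they bind. PP1 binds a large set of targeting and inhibitory proteins at a shared groove. PP2A is built from a catalytic subunit, a scaffold and an exchangeable B subunit, and its B55 forms hold back mitotic entry in *Xenopus* egg extracts. Calcineurin pairs a catalytic A with a calcium-binding B subunit and is known for its role when the egg leaves its meiotic arrest. PP4 and PP6 bind their own sets of regulatory subunits, and PP5 carries its regulatory repeats in the same protein.

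End peaks are peaks with a summit no farther than 1 kb from the start or the end of a copy. Distal peaks are those with a summit up to 10 kb from an end of the copy, inside or outside the gene. Their summit was also more than 1 kb from all annotated ends of coding and lncRNA genes. The table gives no strand, and an end can be the start or the finish of transcription. Over the whole list the median fold was 5.51, which is the ratio of coverage at the summit to the local control, and the median width was 155 bp. The tissue label was compared with 15 ectodermal genes, of which 27 of 28 copies had a peak within 10 kb (96.4%, 95% Wilson interval 82.3 to 99.4). The exception was dlx3.L. Of 20 copies of 13 genes of late organs, 5 had such a peak (25.0%, 11.2 to 46.9), namely ckm.L, cpa1.L, cpa1.S, cryaa.S and myh6.S. At cryaa.S there were 12 such peaks. Of all protein-coding genes, 36.9% had no peak within 10 kb. Neither list was chosen for other parts of the blastula, so that the comparison cannot tell the cap from them. Intervals here and below cover counting error only, since gene copies are not replicates and reads were amplified by PCR without molecular identifiers.

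Most phosphatase copies had an accessible end in the stage 9 animal cap. An end peak was present at 86 of 111 copies (77.5%, 68.9 to 84.3), beside 47.8% of all protein-coding genes and 60.9% of those with a name. End peaks with a −log10 q-value of at least 10 were present at 51 copies (45.9%, 37.0 to 55.2), beside 22.9% of all protein-coding genes. Distal peaks were found at 40 copies (36.0%, 27.7 to 45.3), beside 35.9% of all and 40.9% of named genes. With only peaks of at least the median fold of the list, the distal share was 9.91% (5.62 to 16.9) beside 18.3% of all protein-coding genes, and thus below it. With only peaks of a −log10 q-value of at least 10, it was 8.11% (4.32 to 14.7) beside 6.76%, and thus not below it. The copies were longer than the background genes, with a median of 26168 bp against 17192 bp for all and 21312 bp for named protein-coding genes. The part of length and of gene naming in the higher share of end peaks was not tested. Shares of named genes were computed only for end and distal peaks without a limit on strength. Other comparisons with all genes, here and below, do not account for naming.

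Within 10 kb of their ends the copies had between 0 and 13 peaks. In 78 copies there were 1 to 3, and 15 copies had none, whereas 36.9% of all protein-coding genes had none. At the upper end, 9 copies had 5 or more peaks, and 9.83% of all protein-coding genes reached that number. At copies with no peak, opening of the chromatin could not be detected with this number of fragments. Reads that fit L and S equally well were removed by the mapping filter, and a missing peak cannot be told apart from that loss.

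**Figure D1:**
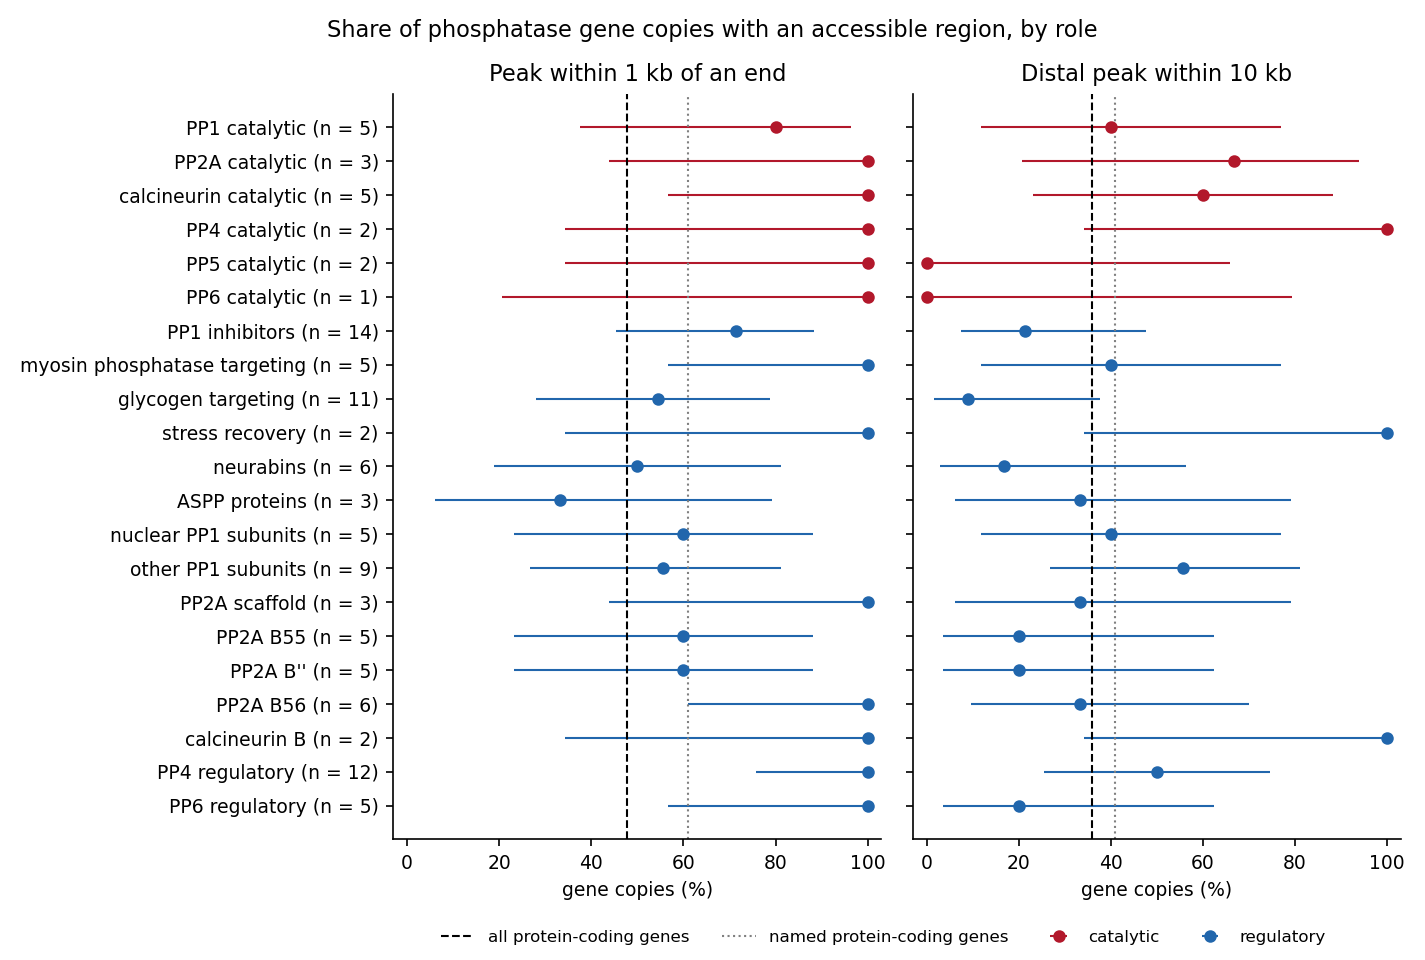
Share of gene copies in each role group (y axis, n = number of copies) with a peak within 1 kb of an end (left) or a distal peak within 10 kb (right), in percent, with 95% Wilson intervals and the shares of all (dashed) and named (dotted) protein-coding genes. PP4 regulatory subunits reached 100% on the left with 12 of 12 copies, and glycogen targeting subunits 54.5%.

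Catalytic subunits had end peaks at 17 of 18 copies (94.4%, 74.2 to 99.0) and distal peaks at 9 (50.0%, 29.0 to 71.0). Regulatory subunits had end peaks at 69 of 93 copies (74.2%, 64.5 to 82.0) and distal peaks at 31 (33.3%, 24.6 to 43.4). The catalytic and regulatory intervals overlap for either kind of peak. By subgenome, end peaks were at 48 of 60 L copies (80.0%, beside 46.7% of all L genes) and 38 of 51 S copies (74.5%, beside 49.4% of all S genes). The strongest end peak of a copy ranged from 3.88- to 21.3-fold among catalytic copies and from 3.09- to 25.2-fold among regulatory copies.

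Among the PP1 catalytic genes, ppp1ca.L (chromosome 9_10L:137550900 to 137557040) had the most peaks, 11 within 10 kb. Its strongest was at 137556950 to 137557529, had a fold of 21.3 and was covered by 43 fragments at the summit (95% Poisson interval 31.1 to 57.9). This summit lay 310 bp outside the upper end of the gene, and 3 weaker end peaks of 4.30-, 4.92- and 4.30-fold lay at the lower end. Of its 6 distal peaks, 3 lay inside the neighbouring sh2b1.L. The copies of ppp1cb, whose product is the catalytic subunit of myosin phosphatase, each had a strong end peak. ppp1cb.L had 24 fragments (15.4 to 35.7) at 14.6-fold and ppp1cb.S 22 (13.8 to 33.3) at 14.0-fold. ppp1cc.L was the only catalytic copy without a peak within 10 kb, while ppp1cc.S had 2 end peaks and 1 distal peak, the strongest with 14 fragments (7.65 to 23.5) at 5.79-fold.

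The PP2A catalytic copies all had an end peak past a −log10 q-value of 10. ppp2ca.S (chromosome 3S:12794241 to 12806756) had 24 fragments (15.4 to 35.7) at 15.4-fold, 244 bp inside the lower end, with a second end peak of 3.86-fold and a distal peak of 8.25-fold beside it. ppp2cb.L reached 11.1-fold with 19 fragments. The related ppp2cal.S reached 7.04-fold with 21 fragments (13.0 to 32.1). The background in its fold was 2.12 fragments, against 0.626 at ppp2ca.S. The latter value was the lowest in the family and was shared by many of its peaks. Fold and fragment number rank ppp2cal.S and ppp2cb.L in opposite order.

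All 5 copies of calcineurin A had an end peak, and their strongest summits lay at similar distances from an end. The distances were 315 bp for ppp3ca.L, 319 bp for ppp3ca.S, 291 bp for ppp3cc.L and 327 bp for ppp3cc.S, all inside the gene, and 307 bp for ppp3cb.L, outside it. Their folds were moderate, between 6.15 in ppp3ca.S with 12 fragments and 11.4 in ppp3cc.L with 20 fragments.

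The copies of ppp4c, the PP4 catalytic subunit, had many peaks around a small gene. ppp4c.L (chromosome 9_10L:135350358 to 135360520) had 13 peaks within 10 kb, the highest number of all 111 copies. ppp4c.S (chromosome 9_10S:115248487 to 115255171) had 7. The end peaks of highest fold were alike in size, with 16 fragments (9.15 to 26.0) at 10.5-fold on L and 17 (9.90 to 27.2) at 11.1-fold on S. ppp4c.S had a second end peak of 10.0-fold with more fragments, 25 (16.2 to 36.9), while ppp4c.L had only 1 end peak. For the 11.1-fold peak of ppp4c.S, fold and p-value also allow 12 fragments, and the value closest to the deposited p-value was taken. The 12 fragments would need a background below the 0.626 fragments that go with 17. No peak of the family was given a background below 0.626. The remaining peaks clustered on the side of the glycolytic enzyme gene aldoa, which lies 1834 bp from ppp4c.L and 2663 bp from ppp4c.S. Of the 9 distal peaks of ppp4c.L, 7 lay inside aldoa.L, and of the 5 of ppp4c.S, 4 lay inside aldoa.S. A further 3 of the 13 peaks of ppp4c.L lay within 1 kb of an end of aldoa.L. The strongest distal peaks were both in aldoa, with 29 fragments (19.4 to 41.6) at 13.1-fold 6041 bp from ppp4c.L and 23 (14.6 to 34.5) at 9.26-fold 6423 bp from ppp4c.S. On the other side lies tbx6, a T-box factor of mesoderm, 2579 bp from ppp4c.L and 4486 bp from ppp4c.S. Which of these genes any distal peak acts on was not measured.

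The end peaks of the PP5 and PP6 catalytic copies ranged from 3.88- to 5.78-fold. ppp5c.L and ppp5c.S each had 1 peak with 7 fragments (2.81 to 14.4), at 4.79- and 3.88-fold, 1 bp and 25 bp inside the gene. ppp6c.S had 1 end peak of 5.78-fold with 10 fragments (4.80 to 18.4) and 1 further peak at the end of another gene.

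**Figure D2:**
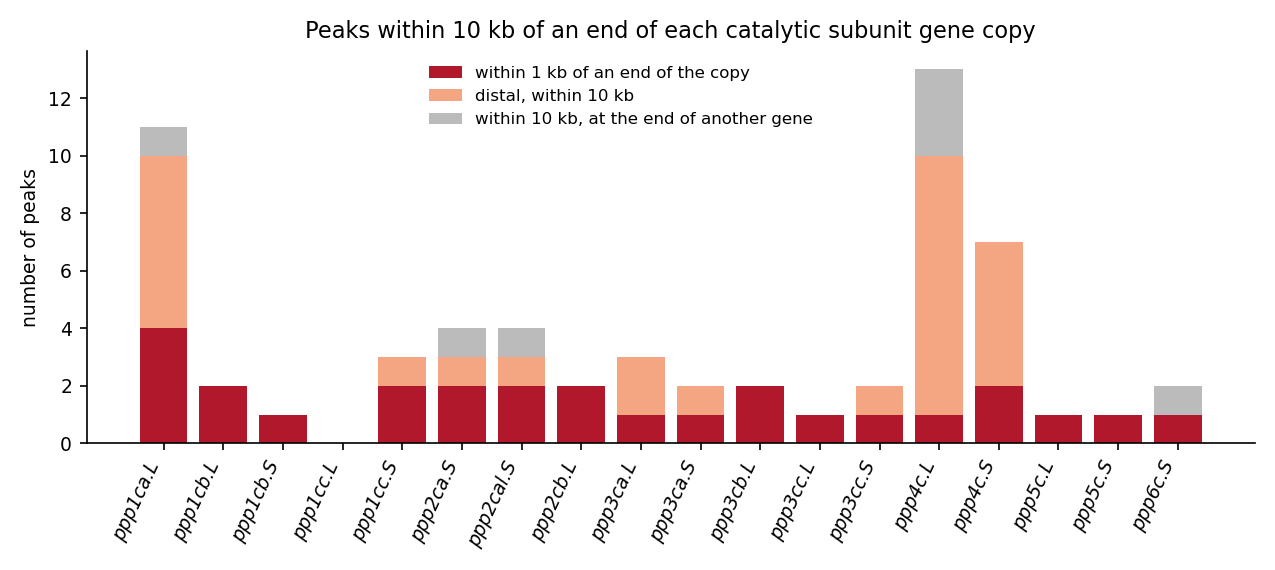
Number of stage 9 peaks within 10 kb of an end of each catalytic subunit copy, split into end peaks, distal peaks and peaks at the end of another gene. ppp4c.L and ppp1ca.L have 13 and 11 peaks, ppp1cc.L has 0, and the other 15 copies have 1 to 7.

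Among regulatory subunits, the share of copies with an end peak ranged from 63.6% to 100% over the classes. Those of PP4 had one at 12 of 12 copies (100%, 75.8 to 100) and those of PP6 at 5 of 5 (100%, 56.6 to 100). PP2A regulatory subunits had one at 15 of 19 copies (78.9%, 56.7 to 91.5) and PP1 regulatory subunits at 35 of 55 (63.6%, 50.4 to 75.1). The interval of the PP1 share holds the 60.9% of named genes and lies above the 47.8% of all genes.

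PP1 inhibitors had end peaks at 10 of 14 copies. Of the 14, 2 had one past a −log10 q-value of 10 (14.3%, 4.01 to 39.9, beside 22.9% of all protein-coding genes). The strongest folds of the inhibitors ranged from 3.67 to 9.53. The copies of ppp1r2, which encodes inhibitor-2, stood highest with 15 fragments each (8.40 to 24.7), at 8.57-fold on L and 9.53-fold on S. ppp1r11, which encodes inhibitor-3, had 8 fragments (3.45 to 15.8) on L and 6 on S. Both copies of ppp1r14a, which encodes the smooth muscle inhibitor CPI-17, had 2 end and 2 distal peaks, none past a −log10 q-value of 10. No peak within 10 kb was found at ppp1r1c.L, ppp1r1c.S or ppp1r1a.S.

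The myosin phosphatase targeting genes included the strongest end peak of the family. At ppp1r12a.S, which encodes the large subunit MYPT1 that brings PP1 to myosin, a peak at chromosome 3S:85419354 to 85419795 had a fold of 25.2 and 40 fragments (28.6 to 54.5), 46 bp outside the lower end. ppp1r12a.L had 23 fragments (14.6 to 34.5) at 13.9-fold. The related ppp1r12b.L stood at 6 fragments and 3.93-fold.

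Glycogen targeting subunits had end peaks at 6 of 11 copies and a distal peak at 1. ppp1r3b and ppp1r3c.1 had 1 end peak in each copy, from 6.79- to 11.3-fold. ppp1r3c.2.L (chromosome 3L:139418144 to 139421578) had 6 peaks around a gene of 3435 bp, with 24 fragments (15.4 to 35.7) at 9.64-fold in the end peak and 9.22-fold in a distal peak 3158 bp away. Its homeolog ppp1r3c.2.S had none. ppp1r3a, the subunit known from mammalian muscle, had no peak within 10 kb at either copy.

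The genes for CReP, a subunit that directs PP1 to the translation factor eIF2α and so restores translation, had many peaks. ppp1r15b.L (chromosome 7L:119049382 to 119057911) had 9 within 10 kb, the most of any regulatory copy, and the S gene named ppp1r15b-b (chromosome 7S:99105840 to 99113961) had 7. The name of the latter kept it out of the homeolog pairs. Its stronger end peak had 23 fragments (14.6 to 34.5) at 14.8-fold, flanked by distal peaks of 13.5-fold outside and 12.3-fold inside the gene. Its other end peak, at the upper end, had 9 fragments at 5.41-fold. The highest end peak of ppp1r15b.L had 17 fragments (9.90 to 27.2) at 10.6-fold and also lay at an end of the uncharacterised gene LOC108695908.

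**Figure D3:**
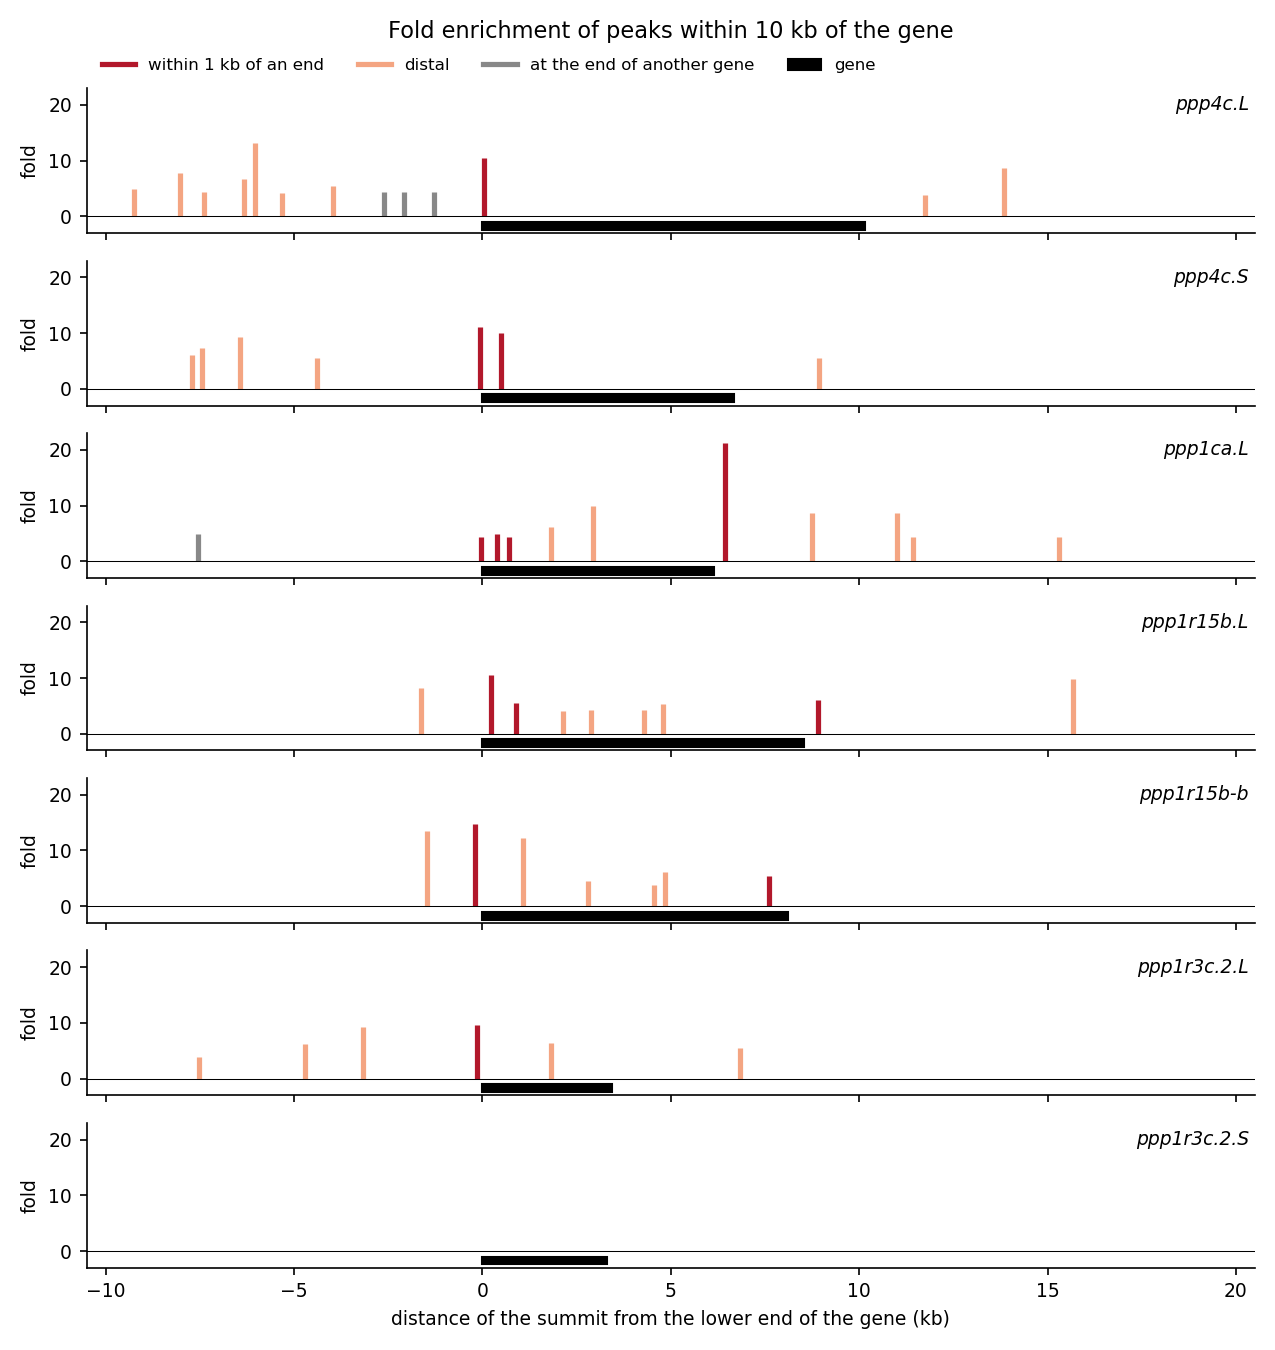
Peaks within 10 kb of 7 copies, placed by the distance of the summit from the lower end of the gene (x axis, kb), with fold enrichment as height (y axis). Peaks of ppp4c.L and ppp4c.S crowd on the left side, where aldoa lies, peaks of the ppp1r15b genes lie over and around the gene, and ppp1r3c.2.S has none.

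Other PP1 subunits were mixed. Neurabin genes (ppp1r9a, ppp1r9al and ppp1r9b), whose products tie PP1 to actin and are best known in neurons, had end peaks at 3 of 6 copies. None of the 6 had one past a −log10 q-value of 10 (0%, 0 to 39.0, beside 22.9% of all protein-coding genes). ASPP genes, whose products also bind p53, had end peaks at 1 of 3 copies. This was ppp1r13b.L with 2 end peaks, the stronger with 27 fragments (17.8 to 39.3) and 13.6-fold. Of the nuclear subunits, ppp1r7.L reached 11.1-fold, ppp1r10.L had 3 end and 3 distal peaks, and neither copy of ppp1r8, which encodes the nuclear inhibitor NIPP1, had any peak within 10 kb. ppp1r36.L counted 8 peaks within 10 kb but no end peak. Of these 8, 6 lay at ends of brf1.L or hspa2.L and the other 2 lay inside hspa2.L.

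The PP2A scaffold genes had strong end peaks in all 3 copies. ppp2r1a.L (chromosome 7L:128575094 to 128604001) had 29 fragments (19.4 to 41.6) at 16.5-fold and ppp2r1a.S (chromosome 7S:106004036 to 106041425) 24 (15.4 to 35.7) at 15.4-fold. These summits lay 104 bp and 114 bp outside the upper end, and each copy had a second peak inside the gene, at 315 bp on L and 267 bp on S, of 10.8- and 9.70-fold. ppp2r1b.S reached 11.6-fold with 19 fragments.

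All 6 copies of B56 subunits, which take part in Wnt signalling among other roles, had an end peak past a −log10 q-value of 10. The highest was ppp2r5e.L (chromosome 8L:92675876 to 92729403) with 28 fragments (18.6 to 40.5) at 17.8-fold. ppp2r5a.S (chromosome 5S:17330089 to 17389752) had the most peaks, 3 at its end and 5 distal, the strongest distal one 10.5-fold and 8208 bp outside the gene. B55 and B'' subunits each had end peaks at 3 of 5 copies. In B55 these were ppp2r2a.S at 7.69-fold, ppp2r2c.L at 10.5-fold and ppp2r2d.S at 12.3-fold. In B'' the strongest was ppp2r3a.L with 34 fragments (23.5 to 47.5) at 13.5-fold.

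The B55 gene ppp2r2b, known in mammals from brain, had no peak within 10 kb of an end in either copy but had peaks deep inside. These genes are the longest of the family, with 204159 bp on L and 219626 bp on S, and each had 3 peaks farther than 10 kb from both ends. The 3 on S lay close together, with summits 97573, 98067 and 98435 bp from the lower end. The 3 on L were spread out, with summits at 47689699, 47764729 and 47788222. The strongest on L, at chromosome 3L:47787701 to 47788408, had 15 fragments (8.40 to 24.7) at 9.09-fold and lay 94534 bp from the nearer end. The strongest on S, at chromosome 3S:106833322 to 106833678, had 21 fragments (13.0 to 32.1) at 12.6-fold and lay 97573 bp from the nearer end. Whether these peaks are starts of shorter transcripts was not tested. Such deep peaks were found in 14 of the 71 copies longer than 20 kb, beside 25.0% of all protein-coding genes of that length, and their 23 peaks had a median of 7 fragments.

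Both genes of calcineurin B (ppp3r1) had strong end peaks, with 28 fragments (18.6 to 40.5) at 16.3-fold on L and 26 (17.0 to 38.1) at 16.5-fold on S, and both also had a distal peak. The S peak also lay 11 bp from an end of the uncharacterised gene LOC121394149. PP4 regulatory subunits ranged from 3.09-fold at ppp4r1l.L to 12.7-fold at ppp4r1.S and ppp4r2.S, and had 1 to 3 peaks each. PP6 regulatory subunits ranged from 7.40-fold at ppp6r1.S to 11.7-fold at ppp6r2.L, and had 2 or 3 peaks each.

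The end peaks of the family numbered 131. They had a median fold of 7.40 (95% interval of the median 6.79 to 8.10) and a median width of 230 bp, and 44.3% passed a −log10 q-value of 10. The 23101 end peaks of all protein-coding genes had a median fold of 6.63 and a width of 208 bp, and 34.1% passed. Catalytic copies had 27 end peaks with a median fold of 7.04 and regulatory copies 104 with 7.51. The 84 distal peaks were weaker and narrower, with a median fold of 4.85, 8 fragments and 144 bp, beside a median fold of 4.94 and 136 bp for all protein-coding genes. Of these 84, 31 lay inside the phosphatase gene itself, 20 inside another protein-coding gene and 33 between genes. Among the 20, 7 lay in aldoa.L and 4 in aldoa.S. This split was made for the phosphatase copies alone, without a share over all protein-coding genes.

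The strongest end peak of a copy lay close to the annotated end. The median distance was 99.5 bp, 68 of 86 summits lay within 250 bp, and 44 lay inside and 42 outside the gene. The definition of end peaks limits this distance to 1 kb, and no value for all protein-coding genes stands beside it. End peaks were at 1 end alone in 82 copies and at both ends in 4, which were ppp1ca.L, ppp1r10.L, ppp1r15b.L and ppp1r15b-b (4 of 86 beside 6.60% of all genes with end peaks). Of the 131 end peaks, 14 (10.7%) also lay within 1 kb of an end of another gene, beside 11.3% of all end peaks. On both subgenomes mrps18b shared peaks with ppp1r10 and mgat1 with ppp1r11.

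**Figure D4:**
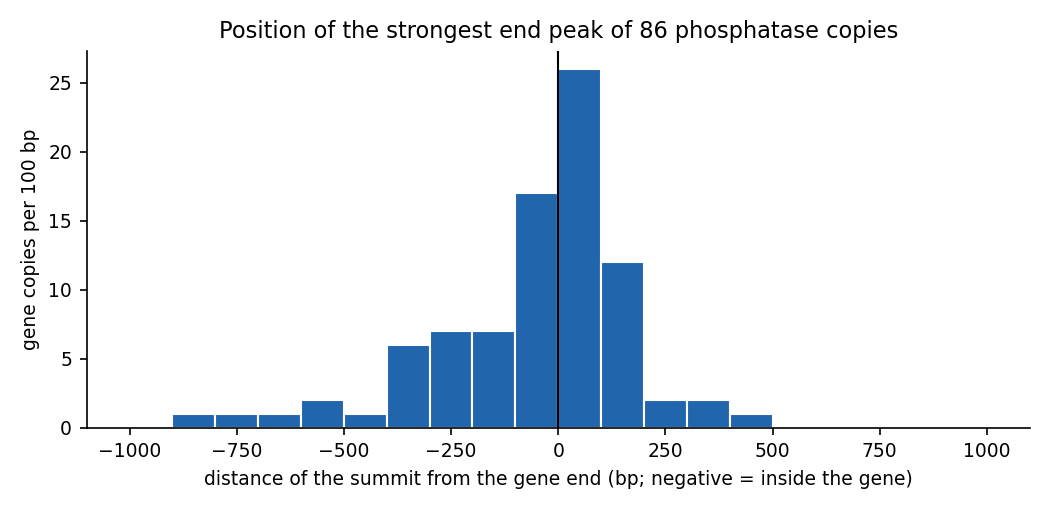
Position of the strongest end peak of the 86 copies that have one, as distance of the summit from the nearer gene end (x axis, bp, negative inside the gene), counted in bins of 100 bp (y axis). Most summits lie within 250 bp of the end (68 of 86). No share for all protein-coding genes is shown.

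Homeologs were compared by their states and by the fragments in their strongest end peaks. Both copies had an end peak in 29 of 42 pairs (69.0%, 54.0 to 80.9), beside 52.9% of 7759 pairs. L alone had one in 5 pairs (11.9%, beside 11.0%), which were ppp1r1a, ppp1r3c.2, ppp1r9a, ppp2r3a and ppp2r3b. S alone had one in 1 pair, ppp1cc (2.38%, 0.422 to 12.3, beside 8.69%). Neither had one in 7 pairs (16.7%, beside 27.4%). The annotated ppp2r3a.S spans 2048 bp against 128804 bp on L, so that the ends of this pair may not correspond. On distal peaks 8 pairs had them at both copies (19.0%, beside 25.1%), 8 at L alone (19.0%, beside 20.1%), 4 at S alone (9.52%, beside 15.5%) and 22 at neither (52.4%, beside 39.3%).

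Peak numbers within 10 kb differed by at most 1 in 34 of 42 pairs, beside 65.8% of all pairs. L had more peaks in 16 pairs (beside 37.8% of all pairs), S in 5 (beside 29.1%), and 21 were equal. The widest gaps were at ppp1r3c.2, with 6 peaks on L and 0 on S, and at ppp4c, with 13 and 7. ppp1cc followed with 0 on L and 3 on S. ppp1r10 had 6 and 3, ppp1r11 had 4 and 1, and ppp1r13l had 3 and 0.

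Where both copies had an end peak, their counting intervals overlapped. The strongest end peak was chosen by fold. It had more fragments on L in 15 pairs (beside 51.1% of all 4108 pairs with end peaks at both copies), on S in 9 (beside 42.3%) and equal numbers in 5. At some copies this choice passed over an end peak with more fragments. Examples are ppp4r3b.S (18 against 16 used, with 17 on L), ppp1r14a.L (9 against 7, with 9 on S) and ppp4c.S (25 against 17, with 16 on L). A split with peaks chosen by fragments was not made. The 95% Poisson intervals failed to overlap in 0 of the 29 pairs, beside 1.95% of the 4108, so that overlap is the usual case at this depth. The farthest apart were ppp1r12a with 23 fragments on L and 40 on S, ppp2r5e with 28 and 13, and ppp4r1l with 7 and 18. The distance of the strongest summit from the nearer gene end, signed for inside or outside, matched within 100 bp in 10 of 29 pairs (34.5%, beside 42.7% of 4108 pairs). In some of these pairs, such as ppp1r14b and ppp3cc, this was the lower end of one copy and the upper end of the other. Without strand, whether the ends correspond is not known.

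**Figure D5:**
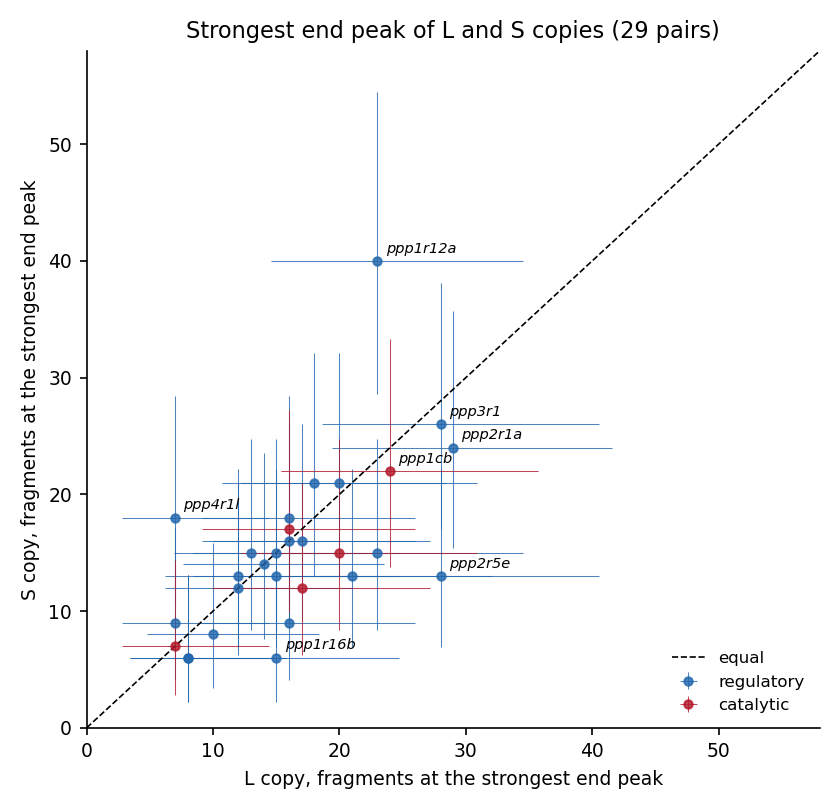
Fragments at the summit of the end peak of highest fold of the L copy (x axis) and the S copy (y axis) in the 29 pairs with an end peak at both, with 95% Poisson intervals and the line of equal numbers. The points spread on either side of the line, with ppp1r12a (23 and 40) above it and ppp2r5e (28 and 13) below.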

How the data were processed

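ATAC-seq read pairs were aligned by the authors with Bowtie2 2.4.2 (v10.1 assembly), filtered for mapping quality and sub-nucleosomal length, and pooled over the stage 9 libraries. MACS2 2.2.7.1 then called peaks, with antibody-free CUT&RUN libraries pooled as the control, and bedtools 2.30.0 is also named in the submitters' processing notes. The control is a different assay and does not remove differences in how the enzymes cut. For each peak the deposited list holds the start, end and summit offset in bp, a fold enrichment (a ratio of summit coverage to local background), the −log10 p-value, the −log10 q-value and a score of 10 times the −log10 q-value. All were used as deposited to describe or filter peaks. Fragments at each summit were recovered from the fold, which includes a pseudocount of 1, and the Poisson p-value (relative tolerance 0.0001). This worked for 274 of 274 peaks of the family. For 2 of these, a pair of solutions was possible and the closer one was taken.

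Gene positions came from an NCBI RefSeq table of the v10.1 assembly without strand, transcripts or exons, so that exon, intron and UTR were not assigned. No sequence was read. Computations used Python 3.11.15, numpy 2.4.6, pandas 2.3.3 and scipy 1.17.1, and figures matplotlib 3.10.9. Window and fragment steps were tested on simulated data. No significance test was run, since 1 pooled list holds no replicates and gene copies are not replicates. Wilson and Poisson intervals cover counting error only. Members and gene lists were chosen with earlier results of these data known. All catalytic copies were named. Further genes were drawn from the 10 regulatory copies with most peaks and the 10 strongest end peaks. The 10 pairs that differed most and the extremes of each role group were also drawn on. Other named genes were chosen after their values were seen. Some genes under these rules are not described, among them ppp1r16b, ppp2r5c and ppp1r42.L. Alternatives covered stricter peaks, other windows and distances, the use of any base of a peak, peaks nearest to the copy and each subgenome alone.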

Additional observations from a re-analysis of the deposited data

How the results depend on the processing

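The share of phosphatase copies with an end peak was 66.7% with only peaks of at least the median fold (38.3% of all protein-coding genes) and 45.9% with only peaks of −log10 q of at least 10 (22.9%). With these limits the regulatory share was 63.4% and 43.0%. The median fold of end peaks was 8.57 and 10.7, since limits on peak strength raise the median of the peaks kept. With the q-value limit the catalytic share was 61.1%, and both copies had an end peak in 28.6% of pairs. No share of all homeolog pairs at this limit stands beside the latter value. The share with a distal peak was 9.91% at the median fold (18.3% of all genes) and 8.11% at the q-value limit (6.76%), and it was 27.0% within 5 kb, 53.2% within 20 kb and 65.8% within 50 kb (25.4%, 48.3% and 68.3% of all genes). The catalytic share was 100% (70.1 to 100) on S alone and 88.9% (56.5 to 98.0) on L alone, with overlapping intervals. In all, 14 values of the family fell outside the 95% interval of the value reported and 33 stayed within it, among them those with windows of 500 bp or 2 kb and with only peaks nearer to the copy than to any other gene end. An analysis without any shared peak was not run.

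No paired analysis was possible because all stage 9 libraries are pooled in 1 list whose columns carry no replicate numbers, and for the same reason no replicate could be left out. Summit coverage of 6 to 43 fragments in end peaks limits what can be told apart between copies.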

Other observations

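Phosphatase genes and partners outside the naming rule were also looked up, as 59 copies of 37 genes. An end peak was present at 47 of these copies (79.7%, 67.7 to 88.0) and a distal peak at 28 (47.5%, 35.3 to 60.0). The shares of all protein-coding genes were 47.8% and 35.9%, and those of named genes 60.9% and 40.9%, and the lists below are small beside them. The metal-dependent PPM phosphatases, which are unrelated in sequence to the ppp family, had end peaks at 16 of 21 copies (76.2%, 54.9 to 89.4), with 11.0-fold at ppm1a.L and 11.7-fold at ppm1g.S.

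Genes that hold PP2A in check had end peaks at 10 of 10 copies (100%, 72.2 to 100). Among them arpp19 and ensa, whose products block PP2A-B55 in mitosis once the kinase Mastl has phosphorylated them, had 14.7- and 14.8-fold (arpp19.L and arpp19.S) and 11.6- and 14.8-fold (ensa.L and ensa.S), and mastl.L had 9.22-fold. The lowest was cip2a.L at 4.85-fold with 9 fragments. Genes for PP2A assembly and methylation had end peaks at 6 of 7 copies (85.7%, 48.7 to 97.4), with the highest, 16.6-fold, at the methylesterase gene ppme1.S. All 5 copies of the calcineurin inhibitor genes rcan1, rcan2 and rcan3 had an end peak, with 34 fragments at 21.5-fold at rcan2.L and 28 at 17.8-fold at rcan2.S. The weakest was at rcan3.L, with 5 fragments at 3.43-fold. Other targeting subunits of PP1 and PP2A had end peaks at 9 of 14 copies (64.3%, 38.8 to 83.7), with 10.7-fold at strn3.L and 11.7-fold at strn3.S, while neither copy of phactr1 had any peak within 10 kb. Of the PPEF genes, known from mammalian sensory neurons, ppef1.L had an end peak of 6.15-fold and ppef2.L had distal peaks alone.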
